A study of Mus musculus with 22 samples.

Results

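The bitter taste receptors of the mouse are encoded by the Tas2r genes, and 34 of them were measured among the 19752 genes that the arrays name by 1 symbol. The members are all probes whose only gene symbol begins with Tas2r, a choice that used no measured difference. Only Tas2r117 had more than 1 probe (35 probes in all), and its probe with the higher mean was kept. The RNA came from medullary epithelial cells of the thymus (MECs) and was measured on 22 Affymetrix ST1.0 arrays, which fall into 8 groups. All mice were C57Bl/6, either Aire+/+ (wild type, WT) or Aire-/- (knockout, KO), and were treated with DMSO (the vehicle), Etopo, Topo or both (EtopoTopo). Etopo and Topo are the labels' own short forms, which in this field commonly stand for etoposide and topotecan, inhibitors of topoisomerase II and topoisomerase I. Neither dose nor duration is given in the sources used here. KO Etopo and KO EtopoTopo had 2 arrays each and the remaining groups 3.

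The groups differed in age. All 5 EtopoTopo arrays (3 WT, 2 KO), WT DMSO 3 and WT Etopo 3 came from mice aged 4 weeks, while the remaining 15 came from mice aged 6 weeks. Of the WT arrays, DMSO 1, Etopo 2 and Topo 2 were from males, and all remaining arrays of both genotypes were from females. WT EtopoTopo 1 and 2 were grouped by their titles, which name both drugs, whereas their treatment label names Etopo only. The sort gate kept DAPI- CD45- cells of Ly51lo MHCIIhi phenotype. No label says whether an array holds 1 mouse or a pool, so the p-values measure the spread between arrays, which may be technical.

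Bitter taste receptors are G protein-coupled receptors of taste cells on the tongue and of tuft cells, the chemosensory cells of airway, gut and thymic epithelium. A bound receptor acts through the G protein gustducin (its alpha subunit is Gnat3 and a gamma subunit is Gng13), the phospholipase Plcb2 and the inositol trisphosphate receptor Itpr3, and the calcium released opens the cation channel Trpm5. Tuft cells depend on the POU-domain factor Pou2f3, and thymic tuft cells belong to the medullary epithelium. Aire, the regulator disrupted in the KO (the labels do not describe the allele), makes MECs transcribe many genes of peripheral tissues.

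By the RefSeq gene table (GRCm38.p6), 32 of the 34 genes lie on chromosome 6, Tas2r134 on chromosome 2 and Tas2r119 on chromosome 15. Split at gaps of over 300 kb, they form 7 clusters. The largest holds 17 genes between Prp2 and Smim10l1, and Tas2r115, Tas2r117 and Tas2r123 are in it. Tas2r137, Tas2r108 and Tas2r138 form a small cluster near Ssbp1 and Mgam, and Tas2r118 lies alone between Rnf148 and Slc13a1. Another cluster holds Tas2r104, Tas2r105 and Tas2r106.

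Promoter windows from RefSeq (GRCm38.p6, 250 bases before to 50 after the annotated gene start) were matched by symbol for 30 of the 34 genes. In 28 of them the gene start is an ATG, so the annotation starts these genes at a start codon and the window is the sequence upstream of it. The windows of 5 genes on which the results turn are printed, 5′ to 3′ on the gene's own strand. Capitals mark that ATG and, where present, the octamer ATGCAAAT or its reverse complement ATTTGCAT, the letters that POU-domain factors are known to bind. The windows of Tas2r108 (chr6:40493342-40493641, plus strand), Tas2r137 (chr6:40490988-40491287, plus strand) and Tas2r118 (chr6:23970011-23970310, minus strand) hold the octamer. Those of Tas2r115 (chr6:132737937-132738236, minus strand) and Tas2r123 (chr6:132846892-132847191, plus strand) do not.
Tas2r108: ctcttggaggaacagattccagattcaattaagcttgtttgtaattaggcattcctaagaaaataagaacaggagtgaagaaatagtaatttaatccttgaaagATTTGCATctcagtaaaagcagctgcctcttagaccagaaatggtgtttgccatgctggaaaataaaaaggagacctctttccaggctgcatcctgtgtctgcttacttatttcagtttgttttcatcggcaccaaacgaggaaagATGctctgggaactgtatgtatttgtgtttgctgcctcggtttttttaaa
Tas2r137: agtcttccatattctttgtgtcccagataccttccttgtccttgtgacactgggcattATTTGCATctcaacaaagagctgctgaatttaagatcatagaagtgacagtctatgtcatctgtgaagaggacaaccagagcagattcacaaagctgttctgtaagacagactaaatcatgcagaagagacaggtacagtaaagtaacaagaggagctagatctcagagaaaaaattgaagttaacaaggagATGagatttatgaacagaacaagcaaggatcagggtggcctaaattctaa
Tas2r118: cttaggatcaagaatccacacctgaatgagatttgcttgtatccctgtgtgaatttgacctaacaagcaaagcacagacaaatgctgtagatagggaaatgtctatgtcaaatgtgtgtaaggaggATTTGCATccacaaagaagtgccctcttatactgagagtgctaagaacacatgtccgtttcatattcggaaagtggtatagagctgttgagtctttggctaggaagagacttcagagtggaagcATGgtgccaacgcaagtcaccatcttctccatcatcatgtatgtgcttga
Tas2r115: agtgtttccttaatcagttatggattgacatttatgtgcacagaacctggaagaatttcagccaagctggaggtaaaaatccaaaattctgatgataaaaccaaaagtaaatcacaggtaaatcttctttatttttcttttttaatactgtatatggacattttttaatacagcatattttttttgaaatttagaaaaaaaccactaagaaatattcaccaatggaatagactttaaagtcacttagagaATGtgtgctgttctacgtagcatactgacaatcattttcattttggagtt
Tas2r123: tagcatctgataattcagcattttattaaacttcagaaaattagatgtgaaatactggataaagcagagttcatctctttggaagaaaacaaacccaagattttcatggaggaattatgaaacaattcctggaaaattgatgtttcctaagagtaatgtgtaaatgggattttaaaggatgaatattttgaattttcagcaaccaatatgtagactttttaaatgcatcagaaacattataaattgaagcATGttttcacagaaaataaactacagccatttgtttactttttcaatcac

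Of the 30 Tas2r windows, 7 (23.3%) held the octamer on either strand, against 1.74% of 32851 windows of all genes. The share was 2.83% among 1272 windows of olfactory and vomeronasal receptors, whose median AT content (64.3%) was near that of the Tas2r windows (62.8%). The 7 genes are Tas2r118, Tas2r137, Tas2r108, Tas2r144, Tas2r135, Tas2r126 and Tas2r107, and 6 of them lie outside the clusters of Tas2r104 and Tas2r115. It starts 146 bases before the gene start in Tas2r108, 192 in Tas2r137 and 124 in Tas2r118, in the ATTTGCAT orientation in each. The motif TATAAA (reverse complement TTTATA, both strands searched) was in 30% of the Tas2r windows, 13.6% of all windows and 39.5% of the olfactory and vomeronasal ones. These are matches of letters and not shown to be bound. Most Tas2r windows lie just before a start codon, which was not checked for the other windows. The shares may therefore be of unlike stretches of sequence, and windows of related genes are not independent.

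Values are log2 of the deposited intensity, a log2 difference of 1 is a 2-fold difference, and levels of different probes cannot be compared as amounts. Arrays had a median intensity between 238 and 274, and replicates correlated at 0.961 to 0.997. The mean of 13 markers of mature medullary epithelium was 10.9 to 11.6 on each array, against a median of 7.90 to 8.10 over all genes. The Aire probe read 12.24 to 12.44 in WT DMSO and 12.88 to 12.96 in KO DMSO. Where it lies relative to the deletion is not given in the sources used here, so it does not check the genotype. The mean of 13 thymocyte markers was 8.29 on WT DMSO 1 and 8.75 on KO DMSO 1, above the other arrays. Olfactory and vomeronasal receptors (Olfr, Vmn1r and Vmn2r, 1194 genes) read low and served as a guide to low signal. Their median was 5.04 to 5.98 per array, highest on KO EtopoTopo 1 (5.98), and it was 5.61 on KO Topo 1.

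Most Tas2r genes read low. In WT DMSO, Tas2r108, Tas2r137 and Tas2r138 were above the 95th percentile of the olfactory and vomeronasal receptors on all 3 arrays. The same was true of 7 genes in WT Topo and in WT EtopoTopo (Tas2r108, Tas2r113, Tas2r115, Tas2r117, Tas2r118, Tas2r137 and Tas2r138). It was true of 6 genes in KO DMSO, WT Etopo and KO Etopo (those 7 without Tas2r115). In KO Topo and KO EtopoTopo, 8 genes were above it, Tas2r123 being the eighth. The family's mean per array was 5.63 to 6.12 in WT DMSO, 5.87 to 6.43 in WT Etopo, 6.18 to 6.42 in WT Topo and 6.56 to 6.81 in WT EtopoTopo. In KO it was 5.81 to 6.04 with DMSO, 6.02 to 6.14 with Etopo, 6.12 to 6.77 with Topo and 6.51 to 6.68 with both drugs. Within each genotype, all EtopoTopo arrays therefore lay above all DMSO arrays, and so did all Topo arrays.

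**Figure D1:**
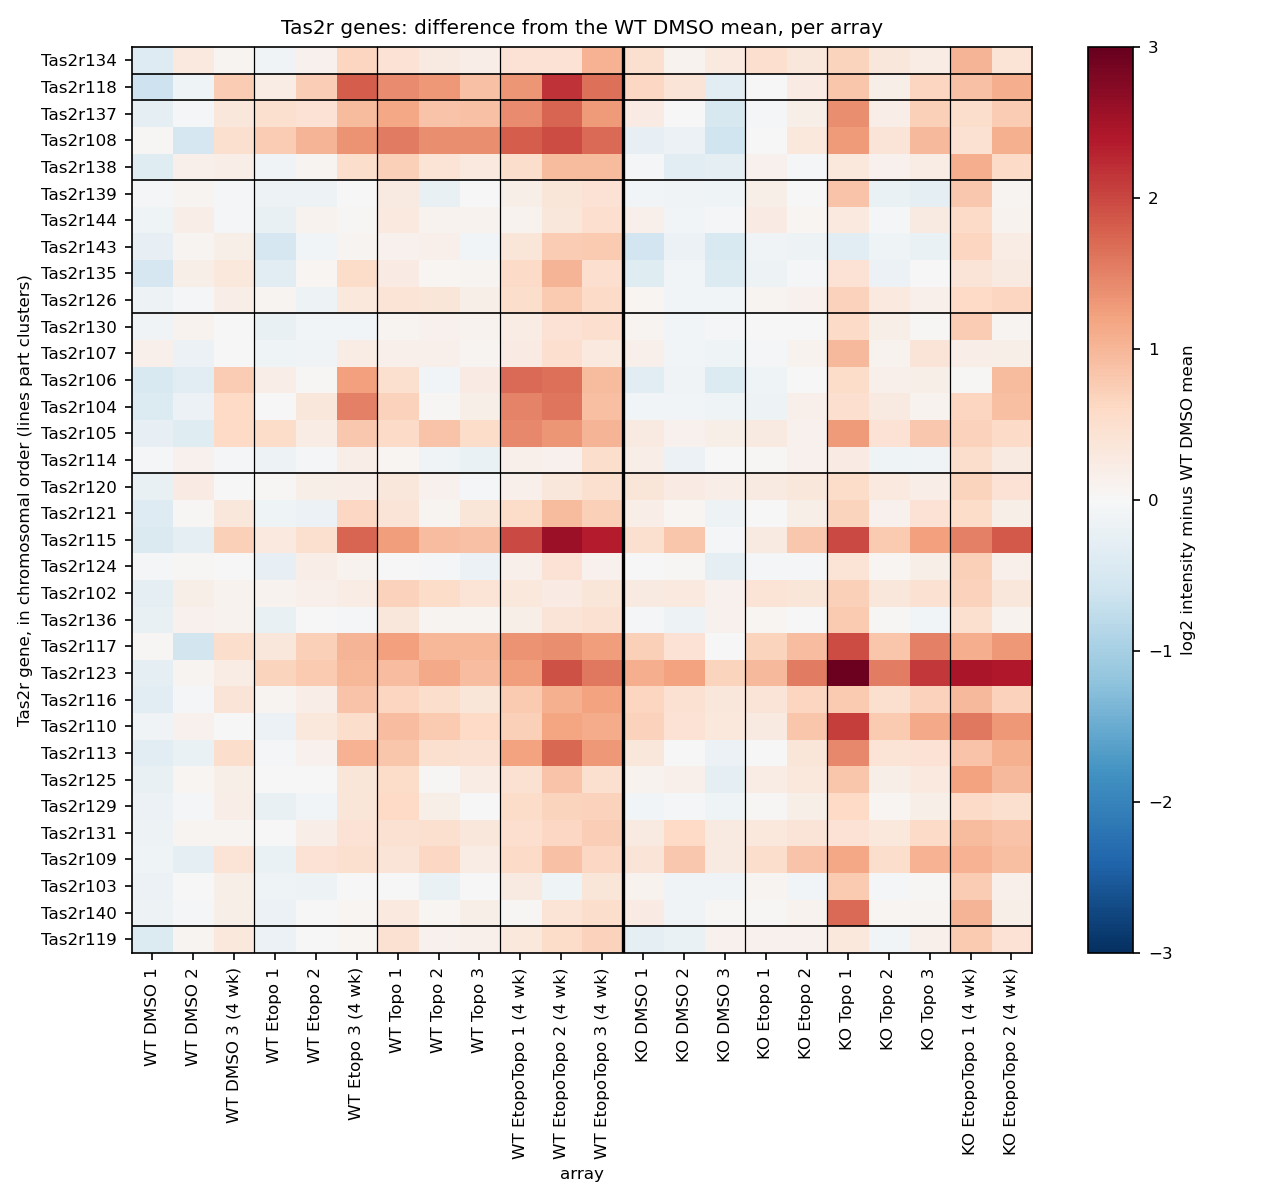
Each row is a Tas2r gene in chromosomal order, each column an array, and the colour is its log2 intensity minus the mean of the 3 WT DMSO arrays (horizontal lines part the 7 clusters, the thick vertical line parts WT from KO, and 4 wk marks arrays of mice of 4 weeks). Red is strongest for Tas2r108, Tas2r115 and Tas2r118 in WT EtopoTopo and for Tas2r123 in KO Topo and KO EtopoTopo, while Tas2r114 and Tas2r144 stay pale.

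Topo against DMSO in WT asked which receptors changed with the drug when Aire was present. A gene was called at a limma adjusted p under 0.05 over all genes. In WT Topo, 5 of 34 Tas2r genes rose and 0 fell, where 0.83% of all genes were called higher and 1.38% lower. They were Tas2r108, a receptor for denatonium, and Tas2r117, Tas2r123, Tas2r137 and Tas2r102. The family's median change was 0.29, with 31 of 34 above 0, against 0.00 for all genes and 0.04 for the olfactory and vomeronasal receptors. The mean of 14 tuft cell markers was 9.09 to 9.32 on the WT DMSO arrays and 9.89 to 10.1 on the WT Topo arrays. In these sorted bulk samples more cells of a type, such as tuft cells, and more RNA per cell cannot be told apart.

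Tas2r108 read 8.29, 7.76 and 8.75 on the WT DMSO arrays and 9.82, 9.66 and 9.65 on the WT Topo arrays. The groups did not overlap, and the difference was 1.45 ± 0.23 (SE, 3 against 3 arrays; limma adjusted p = 0.00218). Of all 19752 genes, this was the largest rise in the comparison. Its call held in all 18 alternatives run, including each left-out array.

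Tas2r117 read 7.35, 6.76 and 7.84 with DMSO and 8.54, 8.31 and 8.32 with Topo, a rise of 1.08 ± 0.25 (adjusted p = 0.0254). Tas2r137 read 7.61, 7.82 and 8.23 with DMSO and 9.05, 8.74 and 8.77 with Topo, a rise of 0.96 ± 0.24 (adjusted p = 0.0335). Neither gene's Topo arrays overlapped its DMSO arrays. Tas2r123 read 5.57, 5.95 and 6.09 with DMSO and 6.79, 7.0 and 6.80 with Topo, a rise of 0.99 ± 0.25 (adjusted p = 0.0393). Tas2r102 rose by 0.54 ± 0.13 (adjusted p = 0.0340). Differences of 1.21 ± 0.35 for Tas2r118 (adjusted p = 0.0765) and 1.02 ± 0.35 for Tas2r115 (adjusted p = 0.164) did not pass. For Tas2r118 the array of a mouse of 4 weeks, WT DMSO 3, read 8.13 and the other DMSO arrays 6.75 and 7.26.

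All WT Topo arrays were above all WT DMSO arrays for 10 of 34 Tas2r genes, and for 8.56% of all genes. The count of called genes was 1 without WT DMSO 1, WT Topo 1, WT Topo 2 or WT Topo 3 and 2 without WT DMSO 2, and it was 10 with age as a covariate. Among arrays of 6 weeks only (2 DMSO, 3 Topo), 7 genes passed: Tas2r108 (1.69), Tas2r118 (1.58), Tas2r115 (1.38), Tas2r117 (1.34), Tas2r137 (1.13), Tas2r105 (0.96) and Tas2r116 (0.70). The thymocyte list, higher on WT DMSO 1, had a median change of -0.53 in this comparison, with 1 of 13 markers called lower, and its part in the result was not tested. With WT DMSO 1 and KO DMSO 1 both left out, 1 Tas2r gene was called.

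**Figure D2:**
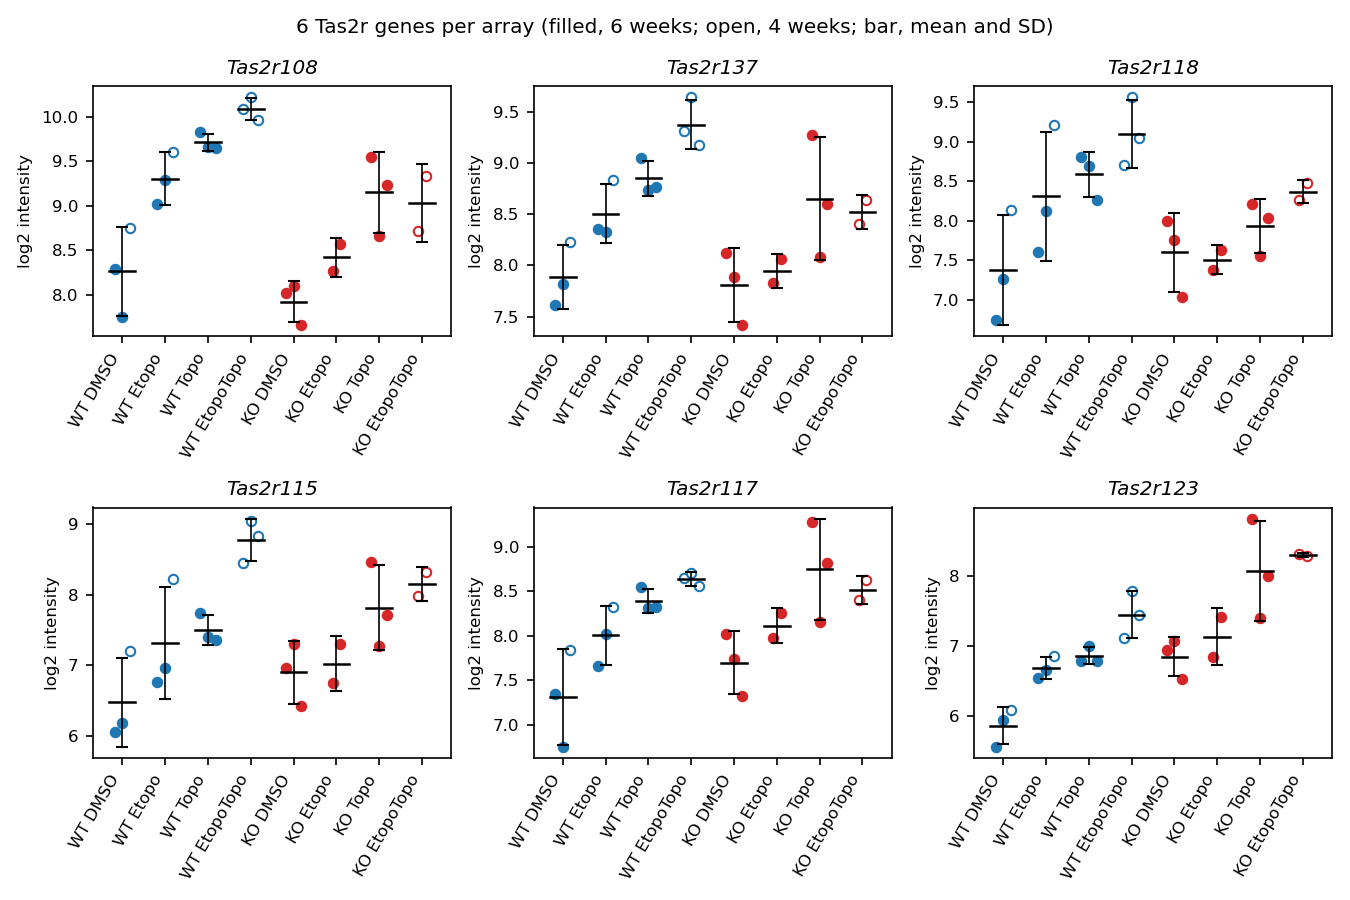
Log2 intensity (vertical axis) of 6 Tas2r genes on every array by group, WT in blue and KO in red, with open symbols for mice of 4 weeks and bars for mean and SD. Tas2r108 is at 9.65 to 9.82 in WT Topo and 7.76 to 8.75 in WT DMSO, and Tas2r123 is higher in KO DMSO (6.53 to 7.07) than in WT DMSO (5.57 to 6.09).

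Etopo in WT gave no call: 0 of 34 Tas2r genes passed in either direction, where 0.00506% of all genes were called higher. At an unadjusted p under 0.05, 8 were higher and 0 lower. Tas2r108 had the largest difference, 1.04 ± 0.23 (adjusted p = 0.230), with arrays at 9.02, 9.29 and 9.61. All of these lay above its DMSO arrays, as did all Etopo arrays of 3 genes in total, where the share among all genes was 4.32%. Tas2r123 followed at 0.82 ± 0.25 (adjusted p = 0.459). The family's median change was 0.15 and that of all genes -0.04. In the direct comparison of WT Topo with WT Etopo 0 Tas2r genes were called, where 0% of all genes were called higher and 0.00506% lower, and at an unadjusted p under 0.05 2 were higher. The median difference was 0.19, and for Tas2r108 the Topo arrays (9.65 to 9.82) lay above the Etopo arrays (9.02 to 9.61).

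With both drugs in WT, 21 of 34 Tas2r genes rose and 0 fell, where 3.6% of all genes were called higher and 7.28% lower. All 34 changes were above 0, with a median of 0.64 against -0.01 for all genes. The olfactory and vomeronasal receptors also lay higher here, with a median of 0.31 and 126 of 1194 called higher. The largest rise was that of Tas2r115, at 2.30 ± 0.35 (adjusted p = 0.000241), which was also the largest among all genes in the comparison. It read 6.05, 6.18 and 7.20 with DMSO and 8.45, 9.04 and 8.83 with both drugs, with no overlap.

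Tas2r108 reached 10.08, 10.22 and 9.96, a rise of 1.82 ± 0.23 (adjusted p = 5.55e-05), and Tas2r118 rose by 1.72 ± 0.35 (adjusted p = 0.00298). Tas2r118 is the counterpart of a human receptor for beta-glucosides. Tas2r123 rose by 1.58 ± 0.25 and Tas2r137 by 1.49 ± 0.24. Of a cluster of 6 genes, Tas2r106 (1.43), Tas2r104 (1.33) and Tas2r105 (1.27), a receptor for cycloheximide, rose, while Tas2r107 and Tas2r114 did not pass. In the largest cluster 11 of 17 genes rose, among them Tas2r113 (1.42), Tas2r117 (1.33), Tas2r116 (1.02) and Tas2r110 (1.00). Tas2r138, the counterpart of the human receptor for phenylthiocarbamide, rose by 0.81 ± 0.18 (adjusted p = 0.00639), so that all 3 genes of its cluster were called. All arrays of EtopoTopo lay above all DMSO arrays for 29 of 34 genes, and for 12% of all genes.

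Age moved with this comparison, since all EtopoTopo arrays and 1 of 3 WT DMSO arrays were from mice of 4 weeks. Within WT DMSO, the array of 4 weeks was the highest of the 3 for 23 of 34 Tas2r genes, and for 23.4% of all genes. Within WT Etopo it was the highest for 30 of 34, and for 32.5% of all genes. With age as a covariate, the family's median difference of 4 weeks from 6 weeks was 0.33, with 33 of 34 above 0, and Tas2r104 was higher at 4 weeks by 1.13 ± 0.20 (limma adjusted p = 0.0392). That fit called 0.0506% of all genes for age. The differences for Tas2r118 (1.23), Tas2r115 (1.23) and Tas2r106 (1.14) did not pass. Only WT DMSO and WT Etopo hold both ages, so the age term rests on WT DMSO 3 and WT Etopo 3. Age cannot be told apart from anything else that these arrays, both numbered replicate 3, have in common.

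In the same fit the drugs' rise in WT EtopoTopo passed for 5 genes, Tas2r115 (1.48), Tas2r108 (1.43), Tas2r123 (1.39), Tas2r137 (1.16) and Tas2r105 (0.83), and the family's median was 0.39. Tas2r108 and Tas2r115 were called with EtopoTopo in all but 1 of their 19 alternatives. The exception was the comparison within 4 weeks, where WT DMSO 3 is the only DMSO array and its spread is taken from the other groups. There Tas2r108 was higher by 1.34 (adjusted p = 0.272), Tas2r115 by 1.57 (adjusted p = 0.189) and the family's median was 0.43. Without WT EtopoTopo 1 and 2, whose treatment label conflicts with their title, 4 genes were called. Without WT DMSO 1 and KO DMSO 1 it was 13.

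**Figure D3:**
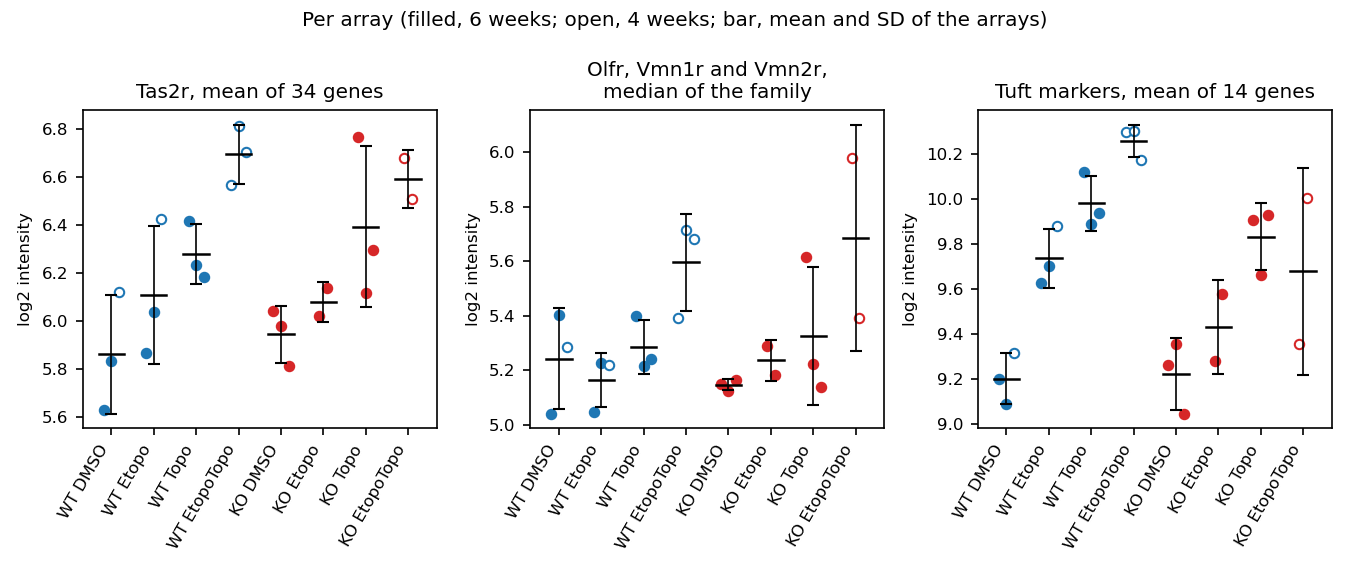
Log2 intensity (vertical axes) per array and group of the mean of 34 Tas2r genes, the median of 1194 olfactory and vomeronasal receptors and the mean of 14 tuft markers, with open symbols for 4 weeks and bars for mean and SD. The Tas2r mean is 6.56 to 6.81 in WT EtopoTopo and 5.63 to 6.12 in WT DMSO, and the olfactory and vomeronasal median is highest on KO EtopoTopo 1 (5.98).

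The treatments were also compared directly, to ask what both drugs gave beyond each alone. All WT EtopoTopo arrays were from mice of 4 weeks and all WT Topo arrays from mice of 6 weeks. Age and the added drug therefore moved together in that comparison. Of the WT Etopo arrays, 1 of 3 was from a mouse of 4 weeks. WT EtopoTopo against WT Topo gave 0 calls among the Tas2r genes, where 0.137% of all genes were called higher and 0.243% lower. The median difference was 0.33, near the 0.27 of the olfactory and vomeronasal receptors, and 14 Tas2r genes were higher at an unadjusted p under 0.05. Tas2r115 differed by 1.28 ± 0.35 (adjusted p = 0.0837) and Tas2r106 by 1.21 ± 0.31 (adjusted p = 0.0757). Fitted on the groups compared alone, 11 genes passed here, and 15 with array quality weights. The shares of all genes called in these fits are not given here, so the counts have no background beside them. Against WT Etopo, 6 genes were higher in WT EtopoTopo (1.25% of all genes were called higher and 2.47% lower): Tas2r113, Tas2r115, Tas2r126, Tas2r129, Tas2r137 and Tas2r143. The count was 2 with the replicate block, 17 without WT Etopo 3, the array of a mouse of 4 weeks, and 0 or 1 without WT Etopo 1, WT Etopo 2, WT EtopoTopo 2 or WT EtopoTopo 3.

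**Figure D4:**
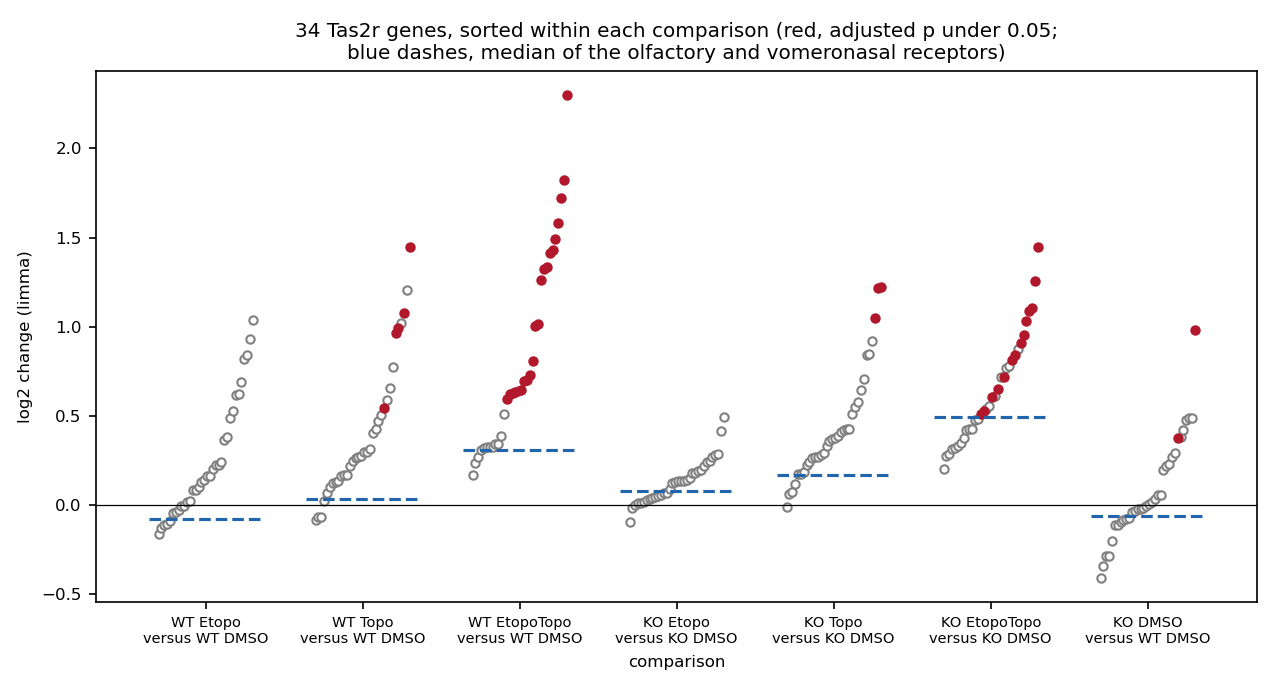
Log2 change (vertical axis, limma) of the 34 Tas2r genes sorted within each of 7 comparisons, filled red where the adjusted p was under 0.05, with blue dashes at the median of the olfactory and vomeronasal receptors. In WT EtopoTopo, 21 genes are red and the dashes are at 0.31, and in KO EtopoTopo 14 are red and the dashes are at 0.49.

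Without drug, few Tas2r genes were called between the genotypes. In KO DMSO against WT DMSO 2 of 34 Tas2r genes were higher, where 7.4% of all genes were called higher, and 0 were lower, where 12% of all genes were called lower. The median change was 0.00, with 17 of 34 above 0. Tas2r123 was higher by 0.98 ± 0.25 (adjusted p = 0.00757), and its KO arrays at 6.95, 7.07 and 6.53 did not overlap its WT arrays. Tas2r131 was higher by 0.37 ± 0.13 (adjusted p = 0.0428). All KO DMSO arrays lay above all WT DMSO arrays for 3 of 34 genes, and for 13.6% of all genes. The call of Tas2r123 was lost in 1 of 18 alternatives, that without WT DMSO 1 and KO DMSO 1 (0 genes called), and that of Tas2r131 in 9 of 17. The count was 6 after quantile normalization, 5 with age as a covariate and 4 among arrays of 6 weeks, and it was 1 without WT DMSO 1, WT DMSO 2, KO DMSO 2 or KO DMSO 3. Of 14 tuft cell markers 0 were called in this comparison, and their mean was 9.09 to 9.32 on the WT and 9.05 to 9.36 on the KO arrays. Of a wider list of 29 tuft cell factors and effectors, 3 were higher in KO and 1 was lower. Of 20 genes of the bitter taste cascade, 2 were higher and 2 were lower.

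Topo was also compared with DMSO in KO, which asked whether the receptors changed with the drug when Aire was absent. In KO Topo, 3 of 34 Tas2r genes rose and 0 fell, where 0.253% of all genes were called higher and 0.78% lower, and the median change was 0.37. The median of all genes was 0.01 and that of the olfactory and vomeronasal receptors 0.17. Tas2r108 read 8.02, 8.10 and 7.66 in KO DMSO and 9.55, 8.66 and 9.24 in KO Topo, a rise of 1.23 ± 0.23 (adjusted p = 0.0134). Tas2r123 read 8.81, 7.40 and 7.99 in KO Topo, all above its KO DMSO arrays, a rise of 1.22 ± 0.25 (adjusted p = 0.0215). Tas2r117 read 8.02, 7.74 and 7.32 with DMSO and 9.27, 8.15 and 8.81 with Topo, a rise of 1.05 ± 0.25 (adjusted p = 0.0453).

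KO Topo 1 was the highest KO Topo array for all of these and was also the one with the raised olfactory and vomeronasal median (5.61, against 5.14 and 5.22 on the other KO Topo arrays). Without it 0 genes were called and the median change was 0.22. Without KO DMSO 3 the count was 0 as well, and without KO Topo 2 it was 6. With the replicate block Tas2r117 was lost, and fitted on the groups compared alone 0 genes were called. All KO Topo arrays lay above all KO DMSO arrays for 14 of 34 genes, and for 7.62% of all genes.

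The Topo comparisons of WT and KO share no arrays, but they come from the same fit. A gene's spread there is pooled over all groups, so its SE was equal in both (0.23 for Tas2r108, 0.25 for Tas2r123). A gene of low spread is favoured in both comparisons, and their calls are therefore not independent. All 3 genes called in KO were among the 5 called in WT (100% of the first list, 60% of the second), and the changes correlated at r = 0.763 over the 34 genes, which are not independent of one another. The difference between the genotypes in the Topo effect (KO effect minus WT effect) was called for 0 Tas2r genes, where 0.0759% of all genes were called higher and 0% lower, and 0 passed an unadjusted p of 0.05. For Tas2r108 it was -0.22 with a 95% interval from -0.90 to 0.46, for Tas2r123 it was 0.23 (-0.51 to 0.97), and for Tas2r118 it was -0.88 (-1.90 to 0.15).

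**Figure D5:**
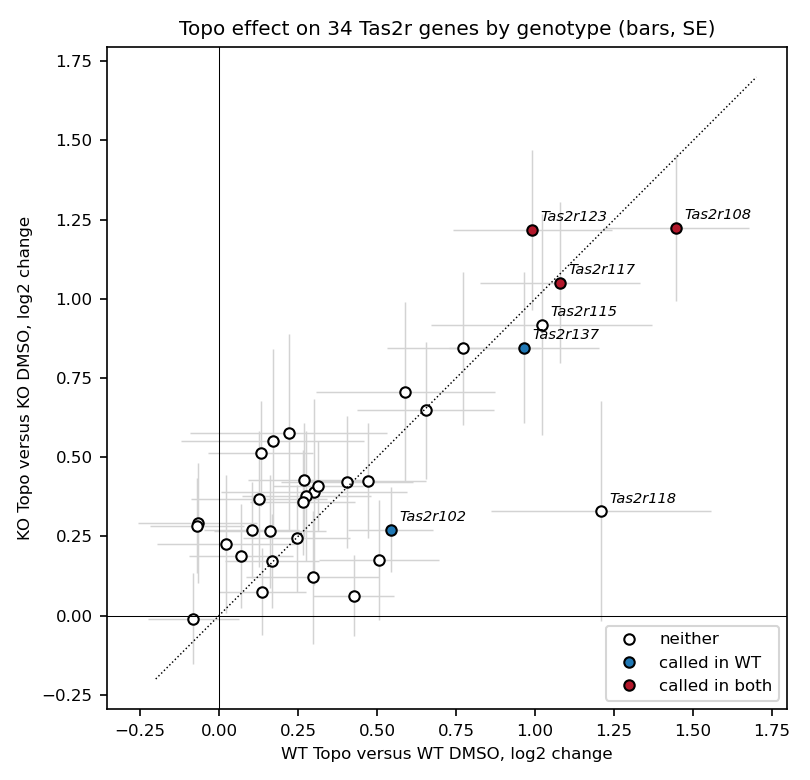
Log2 change with Topo in WT (horizontal axis) against that in KO (vertical axis) for the 34 Tas2r genes, with SE bars, a dotted line of equal change, red for genes called in both genotypes and blue for genes called in WT. Tas2r108, Tas2r117 and Tas2r123 are red, and Tas2r118 lies at 1.21 in WT and 0.33 in KO.

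Etopo in KO gave 0 calls among the Tas2r genes in either direction, where 0% of all genes were called, and 0 at an unadjusted p under 0.05. The median change was 0.13. Here the difference of the Etopo effect between genotypes was likewise called for 0 of the 34 (0% of all genes). All KO Etopo arrays lay above all KO DMSO arrays for 7 of 34 genes, and for 16.9% of all genes.

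With both drugs in KO, 14 of 34 Tas2r genes rose and 0 fell, where 11.1% of all genes were called higher and 11.7% lower. All 34 changes were above 0, with a median of 0.58. The olfactory and vomeronasal receptors had a median of 0.49, with 500 of 1194 called higher, and the part of this raised low signal in the Tas2r result was not tested. Tas2r123 read 8.32 and 8.28, a rise of 1.45 ± 0.28 (adjusted p = 0.00421). Tas2r115 rose by 1.26 ± 0.39 (adjusted p = 0.0298), Tas2r108 by 1.10 ± 0.26 (adjusted p = 0.0101), Tas2r125 by 1.09 ± 0.20 and Tas2r138 by 1.03 ± 0.20.

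Centred on the olfactory and vomeronasal receptors, which sets their median to the same level on each array, the family's median change in KO EtopoTopo was 0.04 and 3 genes were called. It moved the median of all genes to -0.48 in KO EtopoTopo and -0.36 in WT EtopoTopo. In WT EtopoTopo the same centring gave a family median of 0.29 and 13 called genes, and it left 1 gene in WT Topo and 0 in KO Topo. Without KO EtopoTopo 1 the count in KO EtopoTopo was 0, and without KO DMSO 3 it was 7. Both KO EtopoTopo arrays were from mice of 4 weeks and all other KO arrays from mice of 6 weeks, so in KO alone age and treatment cannot be told apart. With an age term, which rests on the WT arrays, 0 genes were called, as with array quality weights or the groups compared alone, and 5 after quantile normalization. Of the medullary markers 5 of 13 were lower in KO EtopoTopo, and their mean was 10.9 and 11.4 on the KO EtopoTopo arrays and 11.6 on each KO DMSO array; the part of this in the result was not tested. All KO EtopoTopo arrays lay above all KO DMSO arrays for 28 of 34 genes, and for 27.3% of all genes.

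The WT and KO comparisons with both drugs share no arrays, but a gene's spread is again pooled over all groups. Their calls are therefore not independent. These comparisons had 12 called genes in common, 57.1% of the 21 called in WT and 85.7% of the 14 called in KO. The changes correlated at r = 0.698 over the 34 genes, which are not independent of one another. Both comparisons set arrays of 4 weeks against arrays all or mostly of 6 weeks. In both, the olfactory and vomeronasal receptors also lay higher (median 0.31 in WT and 0.49 in KO). The part of age and of raised low signal in the overlap was not tested. Tas2r104, Tas2r105, Tas2r106, Tas2r118 and Tas2r137 were among the 9 genes called in WT and not in KO. The difference itself was called for 0 Tas2r genes, where 2.35% of all genes were called higher and 0.106% lower. At an unadjusted p under 0.05 3 were lower: Tas2r105 (-0.84, adjusted p = 0.223), Tas2r137 (-0.78, adjusted p = 0.314) and Tas2r116 (-0.67, adjusted p = 0.279). EtopoTopo against Topo and against Etopo in KO each gave 0 calls (0.324% and 0.451% of all genes were called higher, 0.785% and 1.14% lower), with 6 and 15 genes higher at an unadjusted p under 0.05. Without KO EtopoTopo 2 these counts of calls were 8 and 10, and without KO Topo 1 the first was 2. KO Topo against KO Etopo also gave 0 (0% of all genes), with 7 at that level.

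Under each drug treatment the genotypes were compared as well, and the share of Tas2r genes called was no higher than that of all genes. With Topo, Tas2r123 was higher in KO than in WT by 1.21 ± 0.25 (adjusted p = 0.00179) and was the 1 gene called (5.37% of all genes were called higher and 9.62% lower). Its KO arrays (7.40 to 8.81) did not overlap its WT arrays (6.79 to 7.0), and the call held in all 17 alternatives run, while 4 genes were called without KO Topo 2 and after quantile normalization. With both drugs, Tas2r108 was lower in KO by -1.06 ± 0.26 (adjusted p = 0.00962) and Tas2r137 by -0.85 ± 0.27 (adjusted p = 0.0426), where 6.12% of all genes were called lower and 4.32% higher. Tas2r108 read 8.72 and 9.34 in KO EtopoTopo and 9.96 to 10.22 in WT EtopoTopo. Of the tuft cell markers 6 of 14 were also lower in KO and 0 higher (median -0.45, mean 9.35 and 10.01 on the KO and 10.2 to 10.3 on the WT arrays). So were 6 of 29 tuft cell factors and effectors, a list that holds most of the same markers. The part of these genes in the result was not tested. With Etopo, Tas2r108 was lower in KO by -0.88 ± 0.26 (adjusted p = 0.0261), where 8.07% of all genes were called lower and 4.5% higher. It read 8.27 and 8.58 in KO Etopo and 9.02 to 9.61 in WT Etopo, with no overlap. Without KO EtopoTopo 1 both calls with both drugs were lost, without WT EtopoTopo 1 or 2 one of them was, and the Etopo call was lost without WT Etopo 2, WT Etopo 3 or either KO Etopo array.

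The second probe of Tas2r117 had a change of 1.00 (adjusted p = 0.108) in WT Topo, of 1.52 (adjusted p = 0.00308) in WT EtopoTopo and of 1.55 (adjusted p = 0.0183) in KO Topo. In KO EtopoTopo it was at 0.90 (adjusted p = 0.0622), and the chosen probe at 0.82 (adjusted p = 0.0436). The chosen probe was thus called in WT Topo and KO EtopoTopo, where the second did not pass. In KO Topo against WT Topo the second probe was higher by 1.32 (adjusted p = 0.00475), whereas the chosen probe was not called (0.36, adjusted p = 0.409), so the probes disagree there too. Members of the family are close in sequence, and binding of one gene's RNA to another's probe was not tested.

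The genes of the signalling cascade downstream of the receptors were counted over a list of 20 measured members. In WT Topo 4 rose and 1 fell, with a list median of 0.07, where 0.83% of all genes were called higher and 1.38% lower. Gnat3, the alpha subunit of gustducin, rose by 1.35 (adjusted p = 0.00244), Rgs21, a regulator of G protein signalling in taste cells, by 1.19 (adjusted p = 0.0218), Trpm5 by 1.09 (adjusted p = 0.0153) and Gng13 by 0.58 (adjusted p = 0.0436). Scn9a, a sodium channel, fell by 0.65 (adjusted p = 0.0462). Plcb2 was at 0.79 (adjusted p = 0.0950) and Itpr3 at -0.09 (adjusted p = 0.947), and neither passed.

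In WT EtopoTopo 5 of the 20 rose and 2 fell, Scn9a by 0.62 and Gnat1, the transducin of rods, by 0.47. Of all genes, 3.6% were called higher there and 7.28% lower. Gnat3 rose by 1.55, Trpm5 by 1.5, Plcb2 by 1.38, Gng13 by 1.11 and Trpm4, a related cation channel, by 0.44. Gnat3 was at 8.98 to 9.75 in WT DMSO, 10.6 to 10.8 in WT Topo and 10.6 to 11.0 in WT EtopoTopo. In KO Topo, where 0.253% of all genes were called higher, 2 rose: Gnat3 by 1.05 (adjusted p = 0.0261) and Gng13 by 0.69 (adjusted p = 0.0279). In KO EtopoTopo 3 of the 20 rose and 2 fell, near the shares of all genes called higher (11.1%) and lower (11.7%). Those that rose were Gng13 at 1.02, Gnat3 at 0.85 and Rtp3, a protein that carries receptors to the cell surface, at 0.56. No cascade gene was called with Etopo alone in either genotype.

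Of the 3 sweet and umami receptors, which share this cascade, 0 were called in WT Topo or KO Topo. Tas1r3, the subunit common to both, rose by 1.00 (adjusted p = 0.000141) in WT EtopoTopo and by 0.72 (adjusted p = 0.00796) in KO EtopoTopo, and Tas1r2 rose by 0.53 (adjusted p = 0.0465) in KO EtopoTopo. Tas1r1 passed in none of these.

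Tuft cell markers were counted over 14 genes, of which Gnat3, Trpm5 and Plcb2 are also in the cascade list. In WT Topo 8 rose (median 0.76, with 0.83% of all genes called higher) and in WT EtopoTopo 12 (median 1.07, with 3.6%). In KO Topo 3 rose (median 0.56, with 0.253%) and in KO EtopoTopo 5 (median 0.46, with 11.1%), and no tuft marker fell in these 4 comparisons. Their mean per array was 9.09 to 9.32 in WT DMSO, 9.89 to 10.1 in WT Topo and 10.2 to 10.3 in WT EtopoTopo, and in KO it was 9.05 to 9.36 with DMSO, 9.66 to 9.93 with Topo, and 9.35 and 10.01 on the KO EtopoTopo arrays. The tuft marker mean and the Tas2r mean were thus both higher on all Topo arrays than on all DMSO arrays in each genotype. With Etopo in WT the tuft marker mean was 9.63 to 9.88, above all DMSO arrays (list median 0.57, 14 of 14 above 0, 0 called). The Tas2r mean with Etopo (5.87 to 6.43) overlapped that of DMSO (5.63 to 6.12), through WT DMSO 3, an array of 4 weeks. At 6 weeks the Tas2r mean was 5.63 and 5.83 with DMSO and 5.87 and 6.04 with Etopo. At 4 weeks it was 6.12 with DMSO and 6.43 with Etopo, 1 array each.

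A wider list of 29 tuft cell factors and effectors includes these tuft markers other than Gnat3, Trpm5 and Plcb2, so the counts overlap. It had 9 members that rose in WT Topo, 16 in WT EtopoTopo, 3 in KO Topo and 7 (with 3 that fell) in KO EtopoTopo. The shares of all genes called higher were 0.83%, 3.6%, 0.253% and 11.1% in the same order, and 11.7% were called lower in KO EtopoTopo. Pou2f3, the factor that tuft cells require, rose by 0.64 (adjusted p = 0.0447) in WT Topo and by 0.61 (adjusted p = 0.0212) in WT EtopoTopo. In KO Topo it was at 0.57 (adjusted p = 0.119) and did not pass. Dclk1, a kinase used as a tuft cell marker, rose by 0.72 in WT Topo and 1.23 in WT EtopoTopo. Alox5, which makes leukotrienes, rose by 0.88 and 1.34, and Avil, the actin-binding protein advillin, by 0.90 and 1.03. Chat, which makes acetylcholine, rose by 1.06 in WT EtopoTopo and by 0.48 in KO EtopoTopo. Il25, the cytokine by which tuft cells activate type 2 immunity, passed in none (0.42, 0.34, 0.47 and 0.21 in WT Topo, WT EtopoTopo, KO Topo and KO EtopoTopo). Those that fell in KO EtopoTopo were the transcription factors Spib, by 0.80 (adjusted p = 0.0461), and Sox9, and the keratin Krt18.

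Among themselves the Tas2r genes varied together over the 22 arrays. All 561 pairs had a correlation above 0, from 0.11 to 0.97, with a median of 0.65. The closest were Tas2r113 and Tas2r115 (0.966), Tas2r104 and Tas2r106 (0.952) and Tas2r108 and Tas2r137 (0.940), each pair from the same cluster. The next, Tas2r113 and Tas2r126 (0.939), were from different clusters. These values are over arrays that share groups, treatment and the differences in low signal given above, and they are a description.

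For 5 called genes, the 5 genes outside the family with the closest pattern over the 22 arrays were listed. For Tas2r108 they were Cited2 (r = 0.953), Trpm5 (0.951), Slitrk6 (0.947), Gnat3 (0.931) and Pik3cg (0.924). After each group's mean was removed these were at 0.845, 0.768, 0.732, 0.888 and 0.813. Gnat3 and Pik3cg, a subunit of phosphoinositide 3-kinase, were also among those of Tas2r137 (0.935 and 0.951) and Tas2r105 (0.874 and 0.845). With group means removed the values were 0.861 and 0.823 for Tas2r137, and 0.670 and 0.449 for Tas2r105. For Tas2r115 they were Eya1, Tmbim1, Tas1r3, Pik3cg and Pnpla3 (0.897 to 0.927). Tas2r123 had another set, Pkd2l2 (0.938), A3galt2, Cntnap5a, Adgrg6 and Aph1c.

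The genes beside the clusters were counted as well, 14 measured genes that flank a called Tas2r gene and are no member. In WT Topo 0 of 14 were higher and 1 was lower, Clec5a, a myeloid lectin next to Tas2r138, which fell by 0.83 (adjusted p = 0.00920). In WT EtopoTopo 3 were higher and 1 lower, and in KO Topo 0 were called. Epha1, an ephrin receptor beside Tas2r143, was among the higher ones in WT EtopoTopo at 0.61 (adjusted p = 0.00340). In KO EtopoTopo 4 were higher and 1 lower. Of all genes, 0.83% were called higher and 1.38% lower in WT Topo, and 3.6% and 7.28% in WT EtopoTopo. The shares were 0.253% and 0.78% in KO Topo, and 11.1% and 11.7% in KO EtopoTopo. The median change of the 14 was 0.06 in WT Topo, 0.09 in WT EtopoTopo, 0.13 in KO Topo and 0.43 in KO EtopoTopo, beside 0.29, 0.64, 0.37 and 0.58 for the Tas2r genes.

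The median change varied between clusters, with no test made. In WT Topo it was 0.96 in the cluster of Tas2r137, Tas2r108 and Tas2r138, 0.40 over the 17 genes of the largest cluster and 0.13 over the 5 genes from Tas2r139 to Tas2r126. In WT EtopoTopo these medians were 1.49, 0.63 and 0.63. Genes with and without the octamer in their window were set side by side, also without a test. In WT Topo 2 of 7 rose (median 0.31) and 2 of 23 without it (median 0.27), and in WT EtopoTopo 5 of 7 rose (median 0.70) and 13 of 23 without it (median 0.63). Of the windows printed, those of Tas2r108, Tas2r137 and Tas2r118 hold the octamer and that of Tas2r115, the gene with the largest rise with both drugs, does not.

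Over all comparisons 24 of the 34 genes were called at least once. The share of all genes called at least once was not counted, so this number has no background to be read against. In KO EtopoTopo against KO DMSO alone, 11.1% of all genes were called higher and 11.7% lower. The 10 Tas2r genes never called are Tas2r103, Tas2r107, Tas2r114, Tas2r120, Tas2r130, Tas2r134, Tas2r136, Tas2r139, Tas2r140 and Tas2r144. The gene on chromosome 15, Tas2r119, was called in KO EtopoTopo (0.72, adjusted p = 0.0158), and the one on chromosome 2, Tas2r134, had its largest change in WT EtopoTopo (0.64, adjusted p = 0.0535). A filter on dim probes keeps 8 of the 34 genes (Tas2r108, Tas2r113, Tas2r115, Tas2r117, Tas2r118, Tas2r123, Tas2r137 and Tas2r138). A gene can pass that filter through the groups where it is high. Tas2r115, for example, read 6.05 to 7.20 in WT DMSO, where the median of all genes was 8.06 to 8.10, and at least 8.45 in WT EtopoTopo. That each of the 8 was called in WT EtopoTopo is therefore no separate support.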

How the data were processed

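The deposited table holds 1 intensity per probe and array on a linear scale. The authors made these intensities with Affymetrix Power Tools and RMA, per the submitters' processing notes, and other steps are not given in the sources used here. Of 24922 probes, 21425 had 1 gene symbol in the platform annotation, 1399 several and 2098 none. Probes with several symbols were left out, and the probe with the highest mean was kept for each gene. The values had been thought to be logged when the design was set, and as they are linear, log2 was taken with no pseudocount.

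Groups follow the labels' titles and genotype. limma 3.58.1 (R 4.3.3) fitted 1 mean per group over all 22 arrays (14 residual and 7.22 prior degrees of freedom) with Benjamini-Hochberg adjustment over 19752 genes, and a gene was called at an adjusted p under 0.05. The fit was tested on simulated data. The number of arrays limits the precision, and SD is between arrays. Members, gene lists and tests were chosen with earlier results of these data known. The genes named are all Tas2r genes, listed taste and tuft cell genes, the nearest measured genes beside called Tas2r genes, the 5 closest correlates of the 5 Tas2r genes with the smallest adjusted p in WT EtopoTopo, and Aire. The Tas2r gene symbols were matched to RefSeq (GRCm38.p6) through the Entrez identifier for 34 of 34. Tas2r122 was not analysed here, and neither were probe sequences.

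Arrays of the same replicate number were compared by the correlation of their deviations from the group means. Among groups of 3 arrays, every pair was above 0.1 for WT DMSO with WT Etopo and for KO DMSO with KO Topo. With groups of 2 arrays, the same held for KO Topo with KO EtopoTopo, KO Etopo with KO EtopoTopo and WT Topo with KO Etopo. Over all groups 25 of 71 pairs were above 0.1, within a range of -0.558 to 0.592. The alternatives were other normalizations, a filter on dim probes, the mean of a gene's probes, age as a covariate, the replicate block, array weights, smaller fits and left-out arrays. Those by age group, without WT DMSO 1 and KO DMSO 1, and without KO Topo 1 and KO EtopoTopo 1 were chosen after seeing the data.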

Additional observations from a re-analysis of the deposited data

How the results depend on the processing

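Of the called Tas2r changes, those of Tas2r124 and Tas2r131 in KO EtopoTopo reversed under 1 alternative, to -0.029 (adjusted p = 0.877) and -0.011 (adjusted p = 0.963) after centring on the olfactory and vomeronasal receptors, and neither passed there. No other called change reversed under the alternatives run, and the family's median in the drug comparisons with DMSO stayed above 0. In KO DMSO against WT DMSO that median lay between -0.09 and 0.10 with each array left out in turn. For these comparisons the share of all genes called is given for the unaltered fit only, so the counts below have none beside them. A gene can pass the filter on dim probes through the groups where it is high, so counts with that filter are no separate support. The count of Tas2r genes called higher in KO DMSO against WT DMSO (2) was 6 after quantile normalization, 1 centred on the olfactory and vomeronasal receptors, 1 with normexp, 1 with the filter on dim probes, 5 with age as a covariate, 4 among arrays of 6 weeks and 0 without WT DMSO 1 and KO DMSO 1. In WT Topo (5) it was 1 after centring, 10 with age and 1 without WT DMSO 1 and KO DMSO 1. In WT EtopoTopo (21) it was 13 after centring, 8 with the filter, which leaves 8 of the 34 genes in the test, 5 with age, 4 without the 2 arrays of conflicting label, 0 among arrays of 4 weeks and 13 without WT DMSO 1 and KO DMSO 1. In KO Topo (3) it was 0 after centring, 0 fitted on the groups compared and 1 without KO Topo 1 and KO EtopoTopo 1. In KO EtopoTopo (14) it was 5 after quantile normalization, 3 after centring, 6 with the filter, 0 with age, 0 on the groups compared, 0 with array weights and 3 without KO Topo 1 and KO EtopoTopo 1.

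WT EtopoTopo against WT Topo (0) gave 11 on the groups compared and 15 with array weights, and after centring Tas2r102 alone was called, as lower. WT EtopoTopo against WT Etopo (6) gave 1 after centring, 0 with age, 2 with the replicate block, 18 on the groups compared, 25 with array weights, 0 without the arrays of conflicting label and 0 among arrays of 4 weeks. KO EtopoTopo against KO Etopo (0) gave 2 with the filter. Lower in KO Etopo than in WT Etopo (1) were 0 genes after centring, 0 with age, 2 on the groups compared, 3 with array weights and 0 among arrays of 6 weeks. Higher in KO Topo than in WT Topo (1) were 4 after quantile normalization and 2 with the mean of all probes. In KO EtopoTopo against WT EtopoTopo, 1 gene was higher (0) after quantile normalization and 1 with the filter. The lower ones (2) numbered 0 after centring, 4 with age, 1 with the replicate block, 1 on the groups compared, 0 with array weights, 0 without the arrays of conflicting label and 0 without KO Topo 1 and KO EtopoTopo 1.

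The family's median change in WT Topo (0.29) was 0.46 with age and 0.11 with array weights. In WT EtopoTopo (0.64) it was 0.29 after centring, 0.39 with normexp, 0.39 with age and 0.43 among arrays of 4 weeks. In KO Topo (0.37) it was 0.19 after centring, 0.20 with normexp and 0.22 without KO Topo 1 and KO EtopoTopo 1. In KO EtopoTopo (0.58) it was 0.22 after quantile normalization, 0.043 after centring, 0.28 with normexp and 0.23 with age.

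With each array left out in turn, the counts higher ranged from 1 to 3 in KO DMSO against WT DMSO, 1 to 5 in WT Topo, 14 to 22 in WT EtopoTopo, 0 to 6 in KO Topo and 0 to 19 in KO EtopoTopo. They ranged from 0 to 17 in WT EtopoTopo against WT Etopo, 0 to 8 in KO EtopoTopo against KO Topo, 0 to 10 in KO EtopoTopo against KO Etopo, 1 to 4 in KO Topo against WT Topo and 0 to 1 in KO EtopoTopo against WT EtopoTopo. The counts lower ranged from 0 to 1 in KO Etopo and 0 to 3 in KO EtopoTopo, each against WT. The median in KO Topo ranged from 0.22 to 0.47. Where a group was left with 1 array, that array is assumed to vary like the other groups.

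Among groups of 3 arrays, the correlation rule was met by WT DMSO with WT Etopo and by KO DMSO with KO Topo. With the replicate block, KO Topo had 2 calls (Tas2r117 lost) and WT Etopo 0. The rule was also met by KO Topo with KO EtopoTopo, KO Etopo with KO EtopoTopo and WT Topo with KO Etopo. The last of these differ in both genotype and drug, so the rule does not show that replicate numbers mark real pairs. In WT Topo the block gave 4 calls (Tas2r123 lost). The cause of these differences was not tested. Most of the family reads close to the olfactory and vomeronasal receptors, so signal near background limits what the arrays can show for them.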

Other observations

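Other marker lists moved between groups too. Of all genes, 7.4% were called higher and 12% lower in KO DMSO than in WT DMSO. The shares called higher and lower were 0.83% and 1.38% in WT Topo, 3.6% and 7.28% in WT EtopoTopo, and 11.1% and 11.7% in KO EtopoTopo. Of 10 macrophage and dendritic cell markers, 1 was higher and 4 were lower in KO DMSO than in WT DMSO, and 3 fell in WT EtopoTopo. Trace amine receptors, another family of chemosensory receptors, had 0 of 13 members called in WT Topo, 2 called higher in WT EtopoTopo and 4 called higher in KO EtopoTopo. Of the 14 genes beside called Tas2r genes, 4 were lower in KO DMSO than in WT DMSO and 2 were higher. The lower ones were Clec5a (-1.42), Prss37 (-1.15), 5430401F13Rik (-1.10) and Mgam, an intestinal glucosidase (-0.85). The higher ones were Slc13a1, a sulfate transporter (0.53), and Ssbp1, a mitochondrial DNA-binding protein (0.45).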
